A study of Rattus norvegicus with 23 samples.

Results

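The genes described here are 10 regulators of epithelial-mesenchymal transition, chosen by name as rows of the rat count table, which lists 30452 genes. The mesenchymal regulators were Snai1 (ENSRNOG00000009594, chromosome 3), Snai2 (ENSRNOG00000047699, chromosome 11), Twist1 (ENSRNOG00000011101, chromosome 6), Twist2 (ENSRNOG00000020355, chromosome 9), Zeb1 (ENSRNOG00000017863, chromosome 17), Zeb2 (ENSRNOG00000004677, chromosome 3) and Prrx1 (ENSRNOG00000003720, chromosome 13). The epithelial regulators were Grhl2 (ENSRNOG00000007000, chromosome 7), Ovol1 (ENSRNOG00000020669, chromosome 1) and Esrp1 (ENSRNOG00000008184, chromosome 5). All 10 genes had a row, and 8 passed the filter on low counts, while Grhl2 and Esrp1 did not.

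NRK-52E, a line of rat kidney tubule epithelial cells, and NRK-49F, a line of rat kidney fibroblasts, were grown apart from each other, kept without serum for 24 h and exposed for 48 h to control medium of pH 7.4 or to medium acidified to pH 6.0 with HCl, which asks how an acidic milieu alters gene expression. Poly(A) RNA was sequenced from 6 samples of NRK-52E at each pH, from 6 samples of NRK-49F at pH 7.4 and from 5 of NRK-49F at pH 6.0. Each sample further bears the number of a sample group, 1 or 3 in NRK-52E and 4 or 6 in NRK-49F, and what a sample group stands for is not stated. Each line is a single established line, and nothing in the labels says whether the samples of a condition came from separate cultures, so p-values measure the spread between these samples.

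Epithelial-mesenchymal transition is the programme by which epithelial cells lose their junctions and take on a migratory, matrix-producing state, and in the kidney it is studied in tubule cells and in fibrosis. Snail (Snai1), Slug (Snai2) and the Zeb factors are zinc finger repressors that bind E-box sequences in the promoters of junction genes such as Cdh1, the Twist factors are basic helix-loop-helix proteins, and Prrx1 is a homeobox factor of mesenchymal cells. Grhl2 and Ovol1 keep up the epithelial state and oppose Zeb factors, and Esrp1 sets the epithelial splicing pattern.

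The promoters of the regulators that rose in NRK-52E at pH 6.0, Snai1 and Zeb1, and of Twist2, which fell, are shown because members of the Snail and Zeb families bind the E2 box (CAGGTG) and can act on promoters of their own family. Each sequence holds the 250 bases before the annotated transcription start, 5′ to 3′ on the strand of the gene, from RefSeq (build GRCr8), and capitals mark an E2 box read on either strand. Snai1 lies at chr3:176667226-176667475 on the plus strand, Zeb1 at chr17:56810654-56810903 on the minus strand and Twist2 at chr9:99821992-99822241 on the plus strand.
Snai1: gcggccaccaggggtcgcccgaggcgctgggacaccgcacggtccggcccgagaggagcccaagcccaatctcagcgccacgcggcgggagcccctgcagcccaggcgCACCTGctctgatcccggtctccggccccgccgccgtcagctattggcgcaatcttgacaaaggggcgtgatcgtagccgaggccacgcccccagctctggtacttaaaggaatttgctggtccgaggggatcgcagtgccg
Zeb1: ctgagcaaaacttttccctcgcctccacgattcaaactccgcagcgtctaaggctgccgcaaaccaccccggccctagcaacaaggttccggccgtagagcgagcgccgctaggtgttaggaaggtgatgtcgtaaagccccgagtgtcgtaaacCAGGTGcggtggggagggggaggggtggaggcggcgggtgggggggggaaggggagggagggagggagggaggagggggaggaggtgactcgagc
Twist2: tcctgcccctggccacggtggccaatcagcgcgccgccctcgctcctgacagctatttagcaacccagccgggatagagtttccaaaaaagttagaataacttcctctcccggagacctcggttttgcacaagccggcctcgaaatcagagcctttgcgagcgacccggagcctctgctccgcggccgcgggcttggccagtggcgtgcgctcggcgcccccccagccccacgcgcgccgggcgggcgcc
The first base of the E2 box lay 142 bases before the start in Snai1 and 95 bases before it in Zeb1. No E2 box was found in the same window of Twist1, Twist2, Zeb2 or Prrx1, and 15.9% of all 33469 promoters of that length held at least 1. The cyclic AMP response element (TGACGTCA, in 1.59% of promoters) and the C/EBP-ATF response element (TGATGNAA, in 3.4%), both searched on either strand, had no match in the windows of these 6 regulators. RefSeq promoters of Snai2, Ovol1, Grhl2 and Esrp1 were not used here. A match is a description of letters and not of binding.

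Library depth ran from 16412564 to 34250535 counts. Levels are given as FPM (fragments per 1000000 of the TMM-scaled library total), and 3 counts, the floor set here, corresponded to 0.0839 to 0.203 FPM. FPM holds no gene length, so levels are compared only within a gene. A share of signal of the other line was estimated in each library from genes high in 1 line and near absent in the other. Sample A021 of NRK-52E at pH 7.4 held 1.51% of NRK-49F signal, A022 held 0.542% and A033 0.441%, and the other 9 NRK-52E samples held 0.0242% to 0.128%. Among NRK-49F samples, A051 at pH 7.4 held 4.37% of NRK-52E signal, A039 held 1.13%, and the rest 0.067% to 0.785%.

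Few of the epithelial markers chosen here were well above the floor in NRK-52E, but other epithelial genes were. Of 12 tested epithelial targets of the repressors, 9 were lower and 3 higher in NRK-49F at pH 7.4, where 68.8% of all genes were called. Rab25 passes the filter on low counts in the NRK-52E samples and not in those of NRK-49F, and St14 the reverse. Both had to differ and are no support for these counts. Among the 9 lower, Lsr had a mean of 180 FPM in NRK-52E and 3.53 FPM in NRK-49F, and Cgn 58.0 and 2.25 FPM. Dsp, which is also among the markers, went the other way, with 5.34 FPM in NRK-52E and 56.7 FPM in NRK-49F. Of 10 epithelial markers, 8 had a row under their symbol, and 4 of these 8 (Epcam, Krt18, Cldn4 and Cldn7) had at most 3 counts in any NRK-52E sample. Cdh1, the E-cadherin gene, had at most 12 counts there. The summed level of the 8 markers was 448 to 657 FPM in NRK-52E at pH 7.4 and 196 to 262 FPM at pH 6.0, nearly all of it the keratin gene Krt8, whose mean was higher in NRK-49F (839 FPM) than in NRK-52E (499 FPM) at pH 7.4. Fibroblast markers summed to 10810 to 13798 FPM in NRK-49F at pH 7.4 (7376 to 9943 FPM at pH 6.0) and to 4981 to 8160 FPM in NRK-52E (1842 to 3120 FPM at pH 6.0), where Col3a1 alone had a mean of 6149 FPM at pH 7.4, while Thy1 and Fap had at most 4 counts in any sample of either line. Of 4 leukocyte markers, 1 was above 1 FPM: Cd68, a lysosomal protein gene, rose in NRK-49F from 29.9 to 229 FPM and in NRK-52E from 1.90 to 4.15 FPM, while Ptprc had at most 6 counts. Of 4 endothelial markers, Tek fell in NRK-52E from 14.3 to 1.76 FPM and Kdr had 0 counts in all samples. Pecam1 had a mean of 0.0561 FPM in NRK-52E at pH 7.4 and of 0.581 FPM at pH 6.0, at most 26 counts in a library (log2 fold change 3.00, edgeR adjusted p = 0.000294), and it entered the test through its NRK-49F samples.

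In NRK-52E, Snai1 and Zeb1 rose at pH 6.0, and Snai2, Twist2 and Ovol1 fell. These are the 5 regulators that pass the filter on low counts in the NRK-52E samples alone, and all 5 passed the test between pH 6.0 and pH 7.4 (edgeR's quasi-likelihood test in the fit of both lines, Benjamini-Hochberg adjusted p under 0.05). Of these, Snai2 passes that filter through its samples at pH 7.4 (18 to 82 counts per library). At pH 6.0 it held 7 to 19 counts, so its fall is no support for the count. Of all 13377 genes that pass the filter in NRK-52E alone, the same test called 62.6%, with 26.2% higher and 36.4% lower, so a call by itself was common. Twist1, Zeb2 and Prrx1 entered the fit of both lines through their NRK-49F samples. In that fit Twist1 and Prrx1 were called lower in NRK-52E and Zeb2 was not called, and these 3 results are given as values without support for the count. Over all 14777 genes of the fit, 61.2% were called, 24.7% higher and 36.6% lower, with a median log2 fold change of -0.12. Samples of both pH values did not overlap for 2 of the 5 regulators, Snai1 and Snai2. They did not overlap for 38.6% of the 14777 genes of the fit, a wider set than those that pass the filter in NRK-52E alone. These are bulk samples, in which fewer cells holding an RNA and less RNA per cell cannot be told apart.

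In NRK-49F, 0 of the 8 regulators passed the same test, against 28.9% of all genes. Over all samples, in the fit of both lines, neither edgeR nor DESeq2 gave any of them an unadjusted p under 0.05. Under other settings, Twist1 passed when NRK-49F was fitted alone (adjusted p = 0.0381, edgeR with Benjamini-Hochberg adjustment), where 33.3% of genes were called, and Snai2 had an unadjusted p of 0.0461 within sample group 4 (edgeR adjusted p = 0.136). In all genes the calls were 14.5% higher and 14.4% lower, and samples of both pH values did not overlap for 20.6% of genes and for 0 of the 8 regulators. The median log2 fold change of the regulators was 0.0075, against 0.00088 over all genes. The difference of the change between both lines, tested as a contrast of its own, passed for 3 of the 5 regulators that pass the filter in NRK-52E alone: it was positive for Snai1 and negative for Snai2 and Twist2. It called 42.7% of all genes that pass that filter. In the fit of both lines, where 41.4% of all genes were called, it was also negative past the threshold for Twist1 and Prrx1, which entered through NRK-49F.

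**Figure D1:**
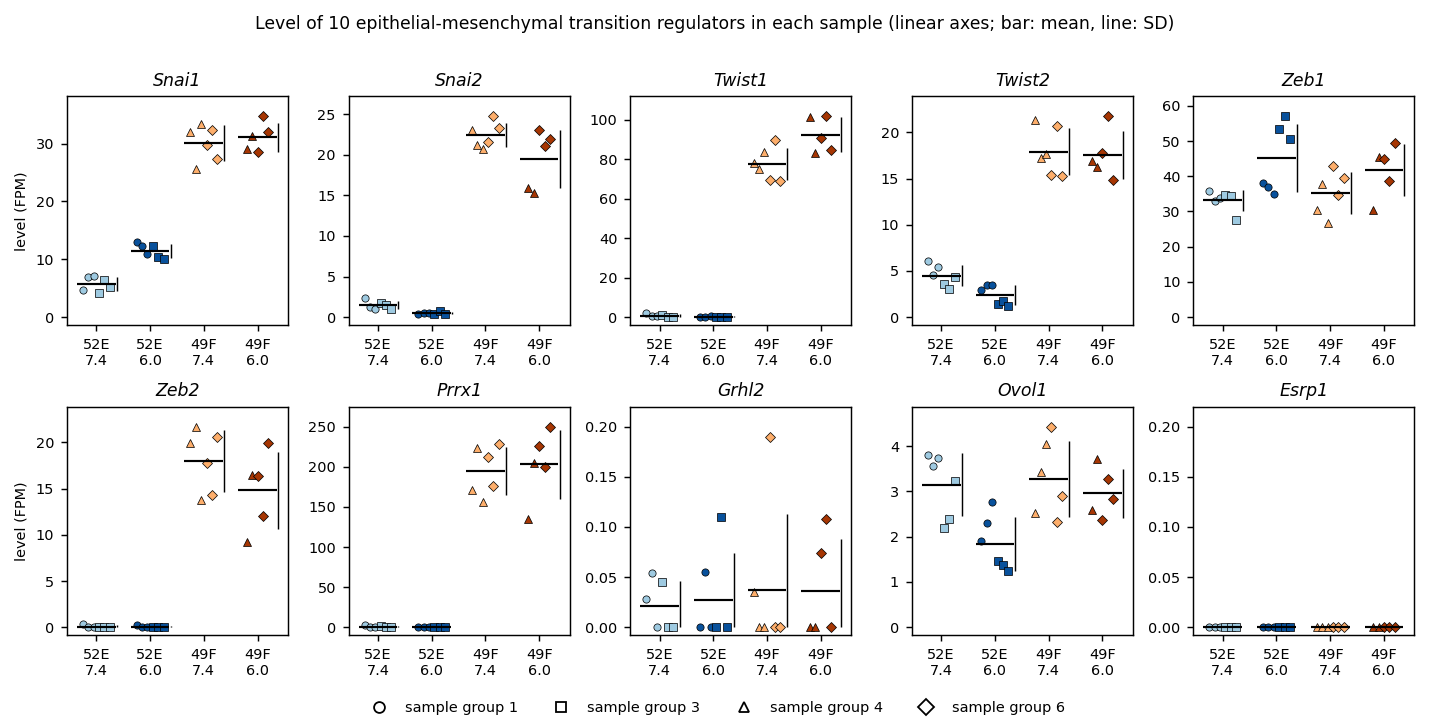
Level in FPM (linear axes, 1 scale per gene) of each regulator in each sample of NRK-52E (52E) and NRK-49F (49F) at pH 7.4 and 6.0, with marker shapes for the sample groups, a bar for the mean and a line for the SD (cut off at 0). Snai1 at pH 6.0 in NRK-52E sits between 9.96 and 13.0 FPM, above all samples at pH 7.4, while the NRK-49F samples overlap for every gene, and Esrp1 is at 0 throughout.

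Snai1, which encodes Snail, rose in NRK-52E. Its level ran from 4.14 to 7.09 FPM at pH 7.4 (median 5.79) and from 9.96 to 13.0 FPM at pH 6.0 (median 11.6). Every sample at pH 6.0 was above every sample at pH 7.4, and this held within sample group 1 and within sample group 3. The mean went from 5.75 ± 1.25 FPM to 11.5 ± 1.23 FPM (SD, n = 6 at each pH), which is 1.00 as a log2 fold change (SE 0.12, 95% confidence interval 0.75 to 1.25, adjusted p = 1.98e-07). In NRK-49F, Snai1 ran from 25.7 to 33.4 FPM at pH 7.4 (median 30.9), and the samples at pH 6.0 had 29.0, 31.3, 28.5, 34.7 and 32.1 FPM. These values overlapped, with A055 (34.7 FPM) above all samples at pH 7.4, and the log2 fold change was 0.05 (SE 0.12, 95% confidence interval -0.20 to 0.29, adjusted p = 0.811). The change in NRK-52E exceeded that in NRK-49F by 0.95 on the log2 scale (SE 0.17, adjusted p = 9.78e-05). Snai1 was higher in NRK-49F than in NRK-52E at both pH values, by a log2 difference of 2.39 (SE 0.12) at pH 7.4 and of 1.44 (SE 0.12) at pH 6.0.

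Snai2, which encodes Slug, fell in NRK-52E while Snai1 rose. At pH 7.4 it ran from 0.981 to 2.29 FPM (median 1.41) and at pH 6.0 from 0.345 to 0.717 FPM (median 0.459), which is 18 to 82 counts and 7 to 19 counts per library. All samples at pH 6.0 were below all samples at pH 7.4. The level was 3.08-fold lower, a log2 fold change of -1.62 (SE 0.23, 95% confidence interval -2.09 to -1.15, adjusted p = 1.47e-06). The highest sample, A021, also held the most NRK-49F signal, and its estimated share would give 12.1 of its 82 Snai2 counts. Without A021 and A051 the log2 fold change was -1.43 (adjusted p = 8.15e-06), and the part of that signal in the result was not tested further. In NRK-49F, Snai2 ran from 20.8 to 24.7 FPM at pH 7.4 (median 22.3), and the samples at pH 6.0 had 15.9, 15.3, 23.03, 21.1 and 21.998 FPM. Both low values were the samples of sample group 4, within which the log2 fold change was -0.47 (SE 0.22, adjusted p = 0.136), against -0.07 (SE 0.19, adjusted p = 0.855) within sample group 6. Over all samples of NRK-49F it was -0.20 (SE 0.16, adjusted p = 0.383). The change differed between the lines by -1.42 on the log2 scale (SE 0.28, adjusted p = 0.000262). Snai2 was 14.8-fold higher in NRK-49F than in NRK-52E at pH 7.4 and 39.7-fold higher at pH 6.0.

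Twist2, the basic helix-loop-helix factor also called Dermo1, fell in NRK-52E. Its level ran from 3.05 to 6.10 FPM at pH 7.4 (median 4.41) and from 1.18 to 3.52 FPM at pH 6.0 (median 2.34). The pooled samples overlapped, but within each sample group they did not: in sample group 1 the ranges were 4.52 to 6.10 and 2.97 to 3.52 FPM, and in sample group 3 they were 3.05 to 4.30 and 1.18 to 1.71 FPM. The log2 fold change was -0.92 (SE 0.23, adjusted p = 0.00122), and it was -0.69 (SE 0.19) in sample group 1 and -1.35 (SE 0.22) in sample group 3, both past the threshold. In NRK-49F, Twist2 ran from 15.3 to 21.3 FPM at pH 7.4 (median 17.4), and at pH 6.0 the samples had 16.9, 16.2, 17.8, 21.7 and 14.8 FPM. The groups overlapped there, with A055 (21.7 FPM) above and A056 (14.8 FPM) below all samples at pH 7.4. The log2 fold change was -0.03 (SE 0.21, 95% confidence interval -0.47 to 0.41, adjusted p = 0.935). The difference between the lines was -0.88 (SE 0.31, adjusted p = 0.0251), and it missed the threshold without A021 (adjusted p = 0.0519), without A055 (0.0543) and without A021 and A051 together (0.0782).

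Twist1, the paralogue that drives mesoderm and neural crest development, was high in the fibroblasts and near the floor in NRK-52E. In NRK-49F it ran from 68.8 to 89.5 FPM at pH 7.4 (median 76.6), and the samples at pH 6.0 had 101, 83.1, 90.9, 102 and 84.5 FPM. The groups overlapped, and the log2 fold change was 0.25 (SE 0.24, 95% confidence interval -0.23 to 0.74, adjusted p = 0.459). With NRK-49F filtered, scaled and fitted alone, the same change of 0.25 passed the threshold (adjusted p = 0.0381). In NRK-52E, Twist1 ran from 0.0566 to 1.96 FPM at pH 7.4 (median 0.625) and from 0.0546 to 0.408 FPM at pH 6.0 (median 0.203), and 5 of 6 and 3 of 6 samples were above the floor of 3 counts. The groups overlapped, with the highest value in A021. Twist1 misses the filter when NRK-52E is taken alone, and its fitted values there are a description: the log2 fold change was -1.88 (SE 0.50, adjusted p = 0.00213), and without A021 it was -1.18 (adjusted p = 0.0218). It was -2.20 (SE 0.60, adjusted p = 0.00464) within sample group 1 and -1.13 (SE 0.85, adjusted p = 0.27) within sample group 3. The fitted difference between the lines was -2.13 on the log2 scale (SE 0.55, adjusted p = 0.00323), and -1.44 without A021 (adjusted p = 0.0169).

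Zeb1 was the mesenchymal repressor whose level did not pass the test between the lines. In NRK-52E it ran from 27.6 to 35.7 FPM at pH 7.4 (median 34.1) and from 34.96 to 57.0 FPM at pH 6.0 (median 44.4). The 3 samples of sample group 3 at pH 6.0 (50.6 to 57.0 FPM) stood above all others, while those of sample group 1 (34.96 to 38.2 FPM) bordered on the samples at pH 7.4. The log2 fold change over all samples was 0.44 (SE 0.14, 95% confidence interval 0.16 to 0.73, adjusted p = 0.00679). It was 0.10 (SE 0.14, adjusted p = 0.574) within sample group 1 and 0.73 (SE 0.14, adjusted p = 0.000208) within sample group 3, so the rise did not hold within both. The difference between the sample groups, 0.63 (SE 0.20), had a p of 0.00578 and an adjusted p of 0.0528 from edgeR, in a contrast that called 10.6% of all genes. In NRK-49F, Zeb1 ran from 26.8 to 42.8 FPM at pH 7.4 (median 36.2), and at pH 6.0 the samples had 30.4, 45.4, 44.8, 38.7 and 49.4 FPM, a log2 fold change of 0.24 (SE 0.14, 95% confidence interval -0.05 to 0.53, adjusted p = 0.223). The change did not pass the test between the lines (0.20, SE 0.20, 95% confidence interval -0.20 to 0.61, adjusted p = 0.436). NRK-49F and NRK-52E differed by 0.09 (95% confidence interval -0.19 to 0.37, adjusted p = 0.571) at pH 7.4 and by -0.11 (95% confidence interval -0.41 to 0.18, adjusted p = 0.472) at pH 6.0.

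Zeb2, the paralogue of Zeb1, was read in every NRK-49F sample and near the floor in NRK-52E. NRK-49F held 13.7 to 21.7 FPM at pH 7.4 (median 18.8), and 9.22, 16.5, 16.3, 12.1 and 19.9 FPM at pH 6.0. The lowest value, in A042, lay below all samples at pH 7.4, the others overlapped, and the log2 fold change was -0.28 (SE 0.28, adjusted p = 0.497). In NRK-52E, 10 of the 12 samples held at most 1 count, A021 held 13 and A024 held 4. The log2 fold change in NRK-52E was -0.86 (SE 0.87, adjusted p = 0.408) and turned to 1.26 without A021.

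Prrx1 was read in every NRK-49F sample and in 4 of 12 NRK-52E samples. NRK-49F held 157 to 228 FPM at pH 7.4 (median 195), and 135, 205, 226, 200 and 250 FPM at pH 6.0, with overlap and a log2 fold change of 0.06 (SE 0.38, 95% confidence interval -0.74 to 0.86, adjusted p = 0.932). In NRK-52E at pH 7.4 the counts were 103 in A021, 14 in A022, 36 in A033, 2 in A034 and 0 in A023 and A035, and at pH 6.0 all 6 samples held 0 counts. The mean was 0.897 ± 1.16 FPM at pH 7.4 and below the floor at pH 6.0, at least 6.11-fold lower when the mean is set against 3 counts per library at pH 6.0 (at least 3.41-fold without A021). The fit of both lines called this difference (edgeR adjusted p = 0.000745), but Prrx1 entered that fit through NRK-49F and misses the filter when NRK-52E is taken alone, so the call is a description. The fitted fold change of a gene with no counts in a group depends on the prior count and is left out. Within sample group 1 the difference had an adjusted p of 0.00909 and within sample group 3 one of 0.0673. The difference between the lines passed (adjusted p = 0.00228), but not after the other line's signal was subtracted (adjusted p = 0.0686).

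Within NRK-52E, Prrx1, Twist1 and Zeb2 were highest in A021, the library with the largest share of NRK-49F signal. Prrx1 and Twist1 themselves meet the rule for the genes that set the share, so their nearness to it is partly built in. For Prrx1 the share alone would give 2.95 FPM in A021, 1.06 FPM in A022 and 0.859 FPM in A033, where 2.88, 0.753 and 1.64 FPM were read, and 0.249 FPM in A023, where 0 counts were read. For Zeb2 it would give 9.72 of the 13 counts of A021, and for Twist1 41.8 of the 70. Snai2 and Twist2 had 82 and 218 counts in A021, against 12.1 and 9.67 from the share. With the share subtracted from every library, Snai1, Snai2, Twist2, Zeb1 and Ovol1 passed in NRK-52E, and they passed as well with A021 and A051 left out, a setting chosen after the data were seen. The part of the share in the levels of Prrx1 and Twist1 was not tested beyond these values.

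**Figure D2:**
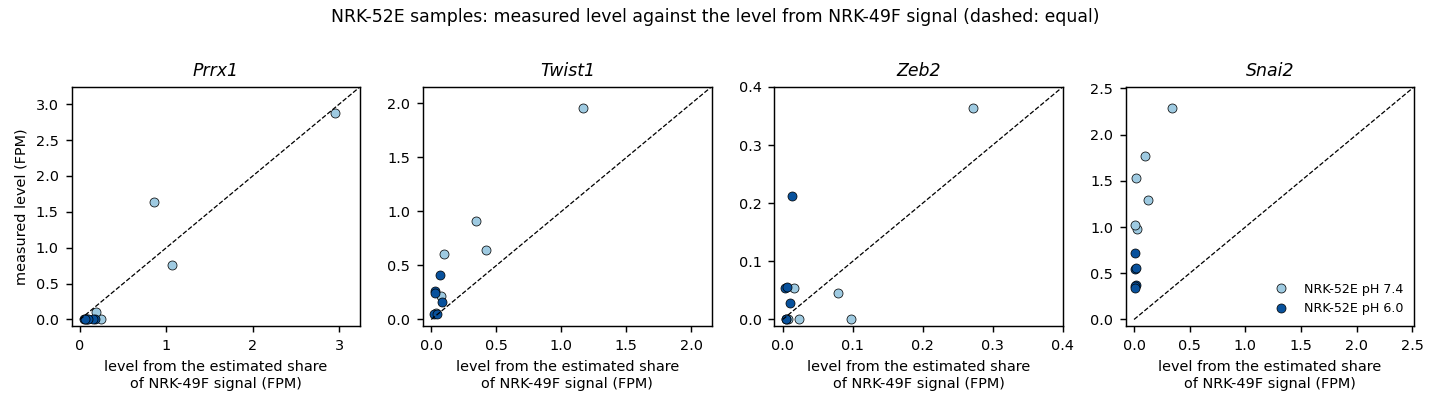
Measured level against the level that the estimated share of NRK-49F signal would give, in FPM, for 4 regulators in the 12 NRK-52E samples, with light points for pH 7.4, dark points for pH 6.0 and a dashed line where both are equal. Prrx1 in A021 (2.88 FPM measured, 2.95 FPM from the share) lies near the line, while Snai2 lies above it in all samples. Prrx1 and Twist1 meet the rule for the genes that set the share, while Zeb2 and Snai2 do not.

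Of the epithelial regulators, Ovol1, a zinc finger repressor, was the 1 that passed the filter, and it fell in NRK-52E. It ran from 2.18 to 3.81 FPM at pH 7.4 (median 3.39) and from 1.23 to 2.77 FPM at pH 6.0 (median 1.69). As for Twist2, the pooled samples overlapped but those within a sample group did not: the ranges were 3.55 to 3.81 and 1.91 to 2.77 FPM in sample group 1, and 2.18 to 3.23 and 1.23 to 1.47 FPM in sample group 3. The log2 fold change was -0.76 (SE 0.22, 95% confidence interval -1.22 to -0.31, adjusted p = 0.0043), with -0.66 (SE 0.25) and -0.93 (SE 0.27) within sample groups 1 and 3, both past the threshold. In NRK-49F, Ovol1 ran from 2.33 to 4.43 FPM at pH 7.4 (median 3.17), and the samples at pH 6.0 had 2.60, 3.72, 2.37, 3.28 and 2.83 FPM, all within that range. The log2 fold change there was -0.14 (SE 0.22, adjusted p = 0.679), and the difference between the lines was -0.62 (SE 0.31, 95% confidence interval -1.27 to 0.03, adjusted p = 0.119). It passed with the sample group as a block (adjusted p = 0.0464) and without A026 (0.0415).

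Grhl2, the grainyhead factor of epithelial cells, held 0 to 2 counts in each NRK-52E sample and 0 to 5 in each NRK-49F sample. Its total was 3 counts over the 6 NRK-52E samples at pH 7.4 and 3 counts over the 6 at pH 6.0, so no difference was detectable at this depth. Esrp1, the epithelial splicing factor, held 0 counts in all 23 samples, and 3 counts, the limit that a count of 0 allows, stood for a mean of 0.138 FPM in NRK-52E at pH 7.4. Such limits cover counting error only.

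**Figure D3:**
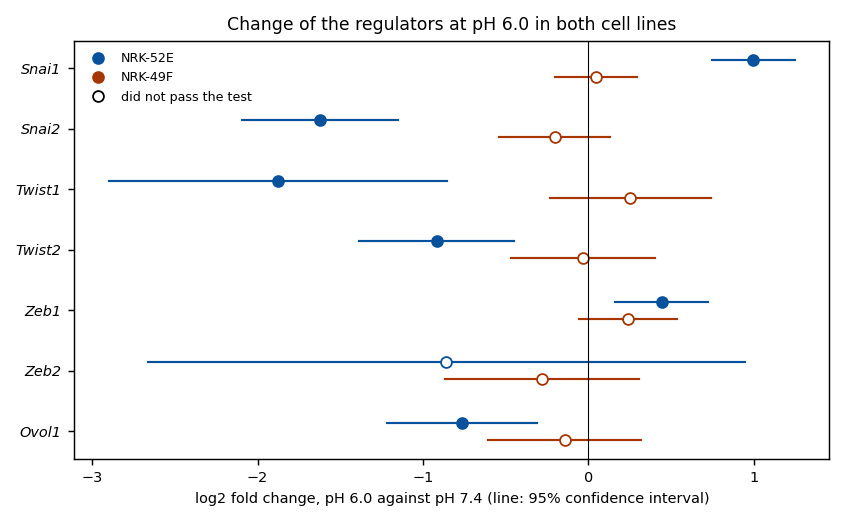
Log2 fold change from pH 7.4 to pH 6.0 of 7 regulators in NRK-52E (blue) and NRK-49F (brown), with 95% confidence intervals and filled points where the test was passed. In NRK-52E, Snai1 (1.00) and Zeb1 (0.44) lie above 0 and Snai2 (-1.62), Twist1 (-1.88), Twist2 (-0.92) and Ovol1 (-0.76) below it, and all intervals of NRK-49F cross 0. Twist1 and Zeb2 entered the fit through NRK-49F, and Prrx1, with no counts in NRK-52E at pH 6.0, is not drawn.

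**Figure D4:**
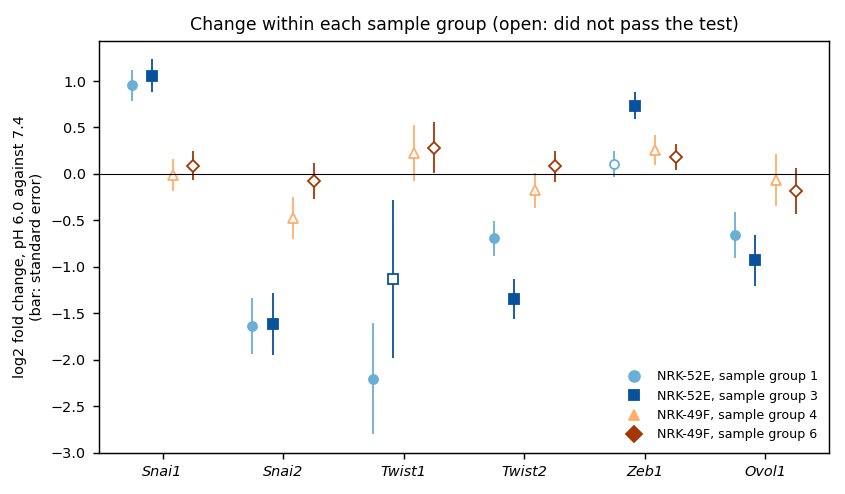
Log2 fold change from pH 7.4 to pH 6.0 within each sample group of NRK-52E (1 and 3) and NRK-49F (4 and 6) for 6 regulators, with standard errors and filled points where the test was passed. In sample groups 1 and 3 of NRK-52E, Snai1 has 0.95 and 1.06, Snai2 -1.64 and -1.61, and Zeb1 0.10 and 0.73.

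Between the lines, Snai1, Snai2 and Twist2 were higher in NRK-49F than in NRK-52E at both pH values, and so were Twist1, Zeb2 and Prrx1, which passed the filter through NRK-49F and had to differ. The test called 68.8% of all genes at pH 7.4 and 75.5% at pH 6.0. These comparisons share samples with those of pH. The log2 difference at pH 7.4 was 1.98 (SE 0.21) for Twist2, 3.89 (SE 0.18) for Snai2, 6.54 (SE 0.32) for Twist1, 7.36 (SE 0.44) for Zeb2 and 7.56 (SE 0.52) for Prrx1. Without A021 it was 7.23 for Twist1, 9.48 for Zeb2 and 8.57 for Prrx1. For Prrx1 at pH 6.0 it was at least 1380-fold, the mean of NRK-49F (203 FPM) against the floor of NRK-52E (0.147 FPM). Ovol1 did not pass between the lines at pH 7.4 (0.05, 95% confidence interval -0.39 to 0.49, adjusted p = 0.856) and was higher in NRK-49F at pH 6.0 (0.67, SE 0.23, adjusted p = 0.0118), with overlapping samples. Line and sample group cannot be told apart in these comparisons, since each line has its own sample groups.

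Genes that act with the regulators were taken from 6 lists written from general knowledge, but with earlier results of these data known. Counts are given for the list genes that pass the filter in the samples of the line in question, a choice made after the data were seen. A gene can pass this filter through the samples of 1 pH, where it is high, so the shares called describe the lists and are no support. Of all genes that pass the filter in NRK-52E, 62.6% were called (26.2% higher and 36.4% lower, median log2 fold change -0.09), and of all that pass it in NRK-49F, 30.1% (15.5% higher and 14.7% lower, median 0.01). Of 19 corepressors and stability factors of Snail and Zeb, all of which passed the filter in both lines, 6 were higher and 7 lower in NRK-52E (median log2 fold change -0.01), and 1 was higher and 5 lower in NRK-49F (median -0.18). These are 68.4% and 31.6% of the list, near the shares over all genes. In NRK-52E, Hdac1, a histone deacetylase, fell from 217 ± 14.2 to 90.3 ± 18.7 FPM (log2 fold change -1.26) and Ctbp2, a corepressor of Zeb factors, from 71.5 ± 7.31 to 32.6 ± 6.42 FPM (-1.13). Suz12, a Polycomb subunit, rose in NRK-52E by 0.73 and in NRK-49F by 0.31 on the log2 scale, and Gsk3b, the kinase that marks Snail for degradation, rose in NRK-52E by 0.55 (adjusted p = 0.0329, edgeR). In NRK-49F, Ajuba, a LIM protein that binds Snail, fell from 105.03 ± 10.7 to 28.3 ± 2.45 FPM (-1.89) and Lats2, a Hippo pathway kinase, from 75.5 ± 14.5 to 35.6 ± 7.91 FPM (-1.09).

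Of 15 other epithelial regulators, 7 passed the filter in NRK-52E, and 1 was higher and 4 lower there (median -0.86), 71.4% against 62.6% over all genes. The 1 that rose was Grhl1, a paralogue of Grhl2, from 7.13 ± 2.66 to 19.9 ± 5.53 FPM (log2 fold change 1.47), whereas Foxa2 fell from 58.1 ± 7.40 to 21.2 ± 7.42 FPM (-1.45) and Tfcp2l1 from 7.56 ± 1.77 to 2.44 ± 0.783 FPM (-1.64). In NRK-49F, 7 passed the filter, and 1 was higher and 3 lower (median -0.22), with Foxa1 at -1.83 and Klf4 at -0.74. These counts were the same with the other line's signal subtracted (median -0.20), and without A021 and A051 5 genes were left, of which 0 were higher and 3 lower (median -0.42). Ovol2, the paralogue of Ovol1, had at most 20 counts in any NRK-52E sample, and Esrp2, the paralogue of Esrp1, at most 6.

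Of 23 other mesenchymal regulators, 11 passed the filter in NRK-52E. There 2 were higher, among them Tcf3 (0.19), and 5 lower, among them Tbx18 (-1.75) and Tcf4 (-1.53), with a median of -0.33, and the 63.6% called lay near the 62.6% of all genes. Without A021 and A051 the counts were 1 higher and 5 lower (median -0.19), and Tcf3 did not pass (0.15, adjusted p = 0.0607). Prrx2 (0.324 FPM at pH 7.4), Hmga2 (0.110 FPM), Sox9 (0.0826 FPM) and Lef1 (0.0572 FPM) were near the floor in NRK-52E and entered the fit through NRK-49F, so they are not counted. In NRK-49F, 14 passed the filter, and 3 were higher and 3 lower (median -0.27), 42.9% against 30.1% over all genes. Sox9, which drives the cartilage programme, rose there from 22.9 ± 2.87 to 62.9 ± 5.14 FPM (1.46) and Tbx3 from 16.6 ± 3.43 to 30.4 ± 4.18 FPM (0.87), while Foxc1 (-0.79) and Foxf1 (-0.58) fell.

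Of 11 splicing factors, 8 passed the filter in NRK-52E, and 2 were higher and 3 lower there (median -0.24), 62.5% against 62.6% over all genes. Mbnl2 (0.72) and Srsf1 (0.40) rose, and Rbfox2 (-0.61) and Ptbp1 (-0.39) fell. In NRK-49F, 9 passed the filter, and 0 were higher and 5 lower (median -0.27), 55.6% against 30.1%, with Celf2 at -2.20 and Ptbp1 at -0.52.

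Of 25 epithelial targets of the repressors, 23 had a row and 11 passed the filter in NRK-52E. There 1 was higher and 7 lower (median -0.67), which is 63.6% lower against 36.4% over all genes. Dsp, the desmosomal protein desmoplakin, fell from 5.34 ± 0.771 to 0.498 ± 0.230 FPM (log2 fold change -3.39) and Rab25, a GTPase of epithelial recycling, from 2.15 ± 0.545 to 0.638 ± 0.552 FPM (-1.70). Spint1, a protease inhibitor, rose from 1.50 ± 0.391 to 10.0 ± 0.959 FPM in NRK-52E (2.72) and from 0.584 ± 0.313 to 3.31 ± 0.327 FPM in NRK-49F (2.52). In NRK-49F, 11 passed the filter, and 1 was higher and 3 lower (median -0.28), 36.4% called against 30.1%, with Cgn at -1.12 and Krt8 at -0.57. With the other line's signal subtracted 2 were lower (median -0.15) and Cgn was not among the genes that passed (-0.84, adjusted p = 0.0796).

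Of 21 mesenchymal effectors, 14 passed the filter in NRK-52E. There 1 was higher and 11 lower (median -1.49), which is 78.6% lower against 36.4% over all genes, and with the share of NRK-49F signal subtracted 1 was higher and 9 lower (median -1.29). Among the 11 lower, Pdgfra and Tnc held at most 2 and 8 counts per library at pH 6.0. They pass the filter through their samples at pH 7.4 and are no support for the count. Col1a2, Cdh2, Cdh11, Mmp2 and Vcan entered the fit through NRK-49F and are not counted. Itga5, the fibronectin receptor subunit, rose by 0.26 on the log2 scale. Tnc fell from 2.78 ± 2.15 to 0.198 ± 0.125 FPM, and Col1a2 had means of 13.5 ± 20.3 FPM at pH 7.4 and 0.347 ± 0.201 FPM at pH 6.0, both far below their means in NRK-49F at pH 7.4 (538 and 4476 FPM). With the share subtracted, counts cut off at 0, Tnc passed (-2.97, edgeR adjusted p = 0.00664). The fitted change of Col1a2 was then 0, as for a row with no counts left, so it is no measure of change. Both genes meet the rule for the genes that set the share. Without A021 and A051 both passed (-3.86 for Col1a2 and -3.29 for Tnc). That setting kept A022 and A033, also NRK-52E at pH 7.4, which held 0.542% and 0.441% of NRK-49F signal. The part of that signal in these 2 changes was not tested. In NRK-49F, 19 passed the filter, and 2 were higher and 8 lower (median -0.59), 52.6% against 30.1% over all genes. Mmp2, a matrix protease, rose from 582 ± 41.7 to 1235 ± 75.5 FPM (1.08) and Itga5 from 155 ± 9.11 to 228 ± 20.6 FPM (0.55), whereas Lox, which crosslinks collagen, fell from 221 ± 52.3 to 70.9 ± 19.8 FPM (-1.64) and Acta2, smooth muscle actin, from 5.17 ± 2.13 to 1.36 ± 0.313 FPM (-1.93). Acta2, which is higher in NRK-52E (246 FPM at pH 7.4), did not pass after subtraction (-1.12, adjusted p = 0.0637).

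**Figure D5:**
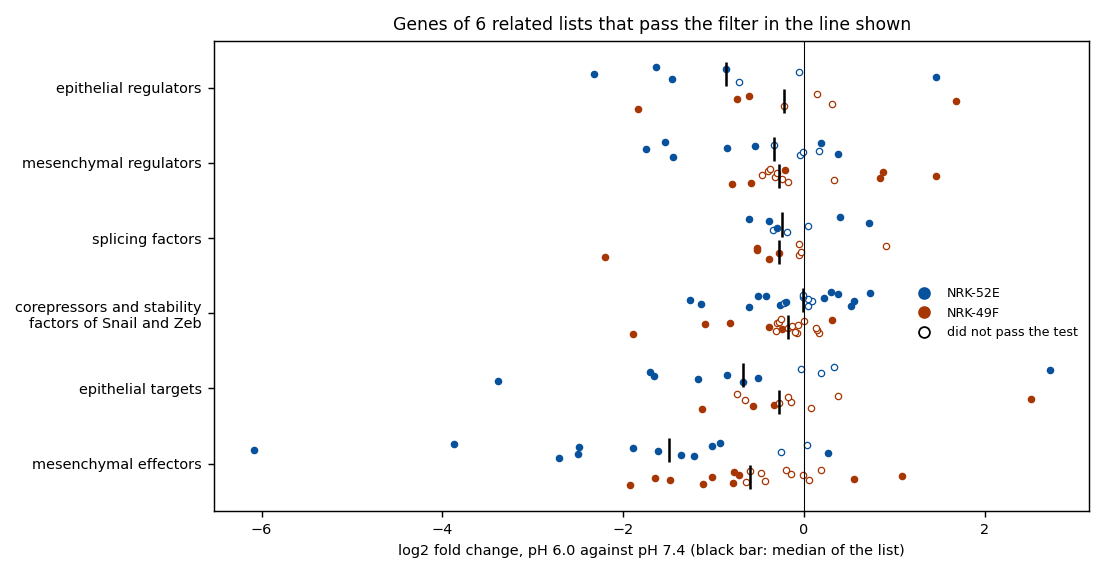
Log2 fold change from pH 7.4 to pH 6.0 of the genes of 6 lists that pass the filter on low counts in the line shown, NRK-52E (blue) or NRK-49F (brown), filled where the test was passed, with a black bar at the median of a list. In NRK-52E the mesenchymal effectors have a median of -1.49 and the epithelial targets one of -0.67, and Spint1 stands at 2.72.

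Genes with the most similar pattern to a regulator were those with the smallest root mean square distance of log2(FPM + 0.5), centred on its mean over the 23 samples, among 11750 genes. For Snai1 these were Tcirg1 (distance 0.199) and Vmp1 (0.244), for Snai2 Irf8 (0.272) and Ogfrl1 (0.299), and for Twist2 Pdgfc (0.224) and Tnfaip8 (0.24). For Twist1 they were Hapln4 (0.293) and Slc22a18 (0.319), for Prrx1 Cdh13 (0.328) and Axl (0.338), and for Zeb2 Hs6st2 (0.177) and Icos (0.185). For Zeb1 they were Nup153 (0.136) and Zc3hav1 (0.143), and for Ovol1 Map3k12 (0.214) and Ccdc136 (0.232). A distance describes these 23 samples and was not tested.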

How the data were processed

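RNA of 23 rat samples was analysed. The deposited values are raw counts per gene, which the authors made from poly(A) read pairs with HISAT2 2.1.0 and featureCounts on exons, with multi-mapping reads included and no normalization. The methods name genome rn7 and the submitters' processing notes rn6, and the strand setting is not given in the sources used here, so overlapping genes may share counts. Of the per-sample columns, 23 were matched to a label and 13 were not used. The labels give 1.5 g/l NaHCO3.

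Groups follow the labelled line and pH, and replicate codes do not pair samples. Counts were fitted in 1 model of 4 conditions with edgeR 4.0.16 (R 4.3.3): filterByExpr (minimum count 10, minimum total 15), TMM, quasi-likelihood test, adjusted p (Benjamini-Hochberg over 14777 genes) under 0.05. Standard errors are the absolute log2 fold change divided by the square root of F. Sample groups were compared in a fit of 8 conditions. The share of the other line is the median, over 90 or 49 genes with at least 50 FPM in the other line and under 1% of that in the own, of the level relative to the other line at the same pH. The alternatives were RLE scaling, no filter beyond 1 count, DESeq2 1.42.0, subtraction of that share, sample group as a block, each line or sample group alone, and each sample left out.

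The 10 regulators and the lists were chosen with earlier results of these data known. From each list and line, the 2 called genes that rose most and the 2 that fell most were named, at a mean of at least 1 FPM in the line. An item among these was tested with the others but is not reported here. Markers and other genes beside them, such as Cd68, Tek, Ovol2 and Esrp2, were named after their values were seen. For each regulator reaching 1 FPM, the 2 genes nearest in pattern were named, with a pseudocount of 0.5. The steps were tested on simulated data. Depth ranged from 16412564 to 34250535 counts, and limits of 3 counts cover counting error only. Promoter sequences are from RefSeq (GRCr8), matched by symbol for 6 of 10 regulators. Figures were drawn with matplotlib 3.10.9 in Python 3.11.15.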

Additional observations from a re-analysis of the deposited data

Results flagged for a closer look

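Among 35 sets of samples of 1 regulator in 1 condition, 4 held a sample far from the rest by Dixon's criterion, which chance meets in about 1 of 20 sets. Zeb1 in NRK-52E at pH 7.4 was lowest in A035, at 27.6 FPM. Zeb2 in NRK-52E was highest in A021 at pH 7.4, at 0.364 FPM (13 counts), and in A024 at pH 6.0, at 0.212 FPM (4 counts). Grhl2 in NRK-49F at pH 7.4 was highest in A051, at 0.189 FPM (5 counts), and A051 also held the most signal of NRK-52E, where Grhl2 had at most 2 counts.

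The change from pH 7.4 to pH 6.0 differed between the lines, by a test of the difference itself, for 5 regulators. That test called 41.4% of all genes, so a call by itself was common. Twist2 missed the threshold without A021 (edgeR adjusted p = 0.0519) and without A055 (0.0543). The change in NRK-52E minus that in NRK-49F was 0.95 for Snai1, -1.42 for Snai2, -2.13 for Twist1 and -0.88 for Twist2 on the log2 scale. For Prrx1 the fitted difference was -7.60, which depends on the prior count and is no bound, since all NRK-52E samples at pH 6.0 held 0 counts. Twist1 and Prrx1 entered this test through their NRK-49F samples and are near or below the floor in NRK-52E, so their values are a description. All 6 samples of NRK-52E at pH 6.0 lay beyond those at pH 7.4 for Snai1 and Snai2.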

How the results depend on the processing

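In NRK-52E, 7 regulators passed under RLE scaling, without the filter, under DESeq2 and with the other line's signal subtracted. As many passed with the sample group as a block and with each of the 23 samples left out in turn. Twist1 and Prrx1 are among these 7 but entered the fit through NRK-49F, and the main fit called 61.2% of all genes. After subtraction, Prrx1 counts in NRK-52E stayed above 0 in A033 alone (36 read, 18.9 from the share), so that call rested on A033. Fitted alone, NRK-52E had 5 tested and 5 passing, since Twist1, Zeb2 and Prrx1 missed its filter, and within sample groups 1 and 3 the counts were 6 and 5. Snai2 passes the filter of NRK-52E through its samples at pH 7.4. In NRK-49F 0 passed under these settings except when the line was fitted alone, where 1 (Twist1) did. For the difference between the lines, 5 passed, 4 with subtraction (Prrx1 lost) or without A021 and A051, 6 with the block, and 4 to 6 with a sample left out. Between the lines, 6 at pH 7.4 and 7 at pH 6.0 passed under every setting run for them. Twist1, Zeb2 and Prrx1, which passed the filter through NRK-49F and had to differ, are in both counts. The main fit called 68.8% of all genes at pH 7.4 and 75.5% at pH 6.0. RLE moved the median of all genes by 0.05 or less on the log2 scale. Changes of sign touched values that had not passed. In NRK-52E, Zeb2 was 0.82 after subtraction, 1.26 without A021 and A051, and -1.74 to 1.26 with a sample left out. Its difference between the lines was 1.12 and 1.55 under the first 2 settings and -1.45 to 1.54 with a sample left out. In NRK-49F, Snai1 was -0.0099 within sample group 4, Prrx1 was -0.12 there and -0.025 to 0.18 with a sample left out, and Twist2 was 0.084 within sample group 6 and -0.12 to 0.024 with a sample left out. Ovol1 between the lines at pH 7.4 was -0.0013 without A021 and A051 and -0.064 to 0.13 with a sample left out. Where no construction is named, the cause was not tested. No paired analysis was possible because replicate codes are not shared between groups. At 3 counts as the floor, Grhl2, Esrp1, and Zeb2 and Prrx1 in NRK-52E lay at or near what this depth can show.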
